A study of Mus musculus with 8 samples.

Results

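Potassium channel subunits were followed as 62 genes out of the 23845 in the deposited gene table, measured in cultured mouse hippocampal neurons with and without knockdown of CNOT7. The members are the genes whose symbol starts with Kcn, leaving out the channel-interacting proteins Kcnip1, Kcnip2, Kcnip3 and Kcnip4 and the channels Kcnd2 and Kcnd3, and whose mean over the 8 libraries reached 1 TPM. TPM is a length-corrected measure of the share that a gene takes of the RNA in a library. Of 97 such symbols 6 were left out by name, and of the remaining 91 a further 29 lay under 1 TPM, 24 of them at 0 in every library.

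The libraries formed 4 groups of 2. Neurons were prepared from mouse embryos at day 19 and infected at 13 to 15 days in vitro with a lentivirus that expressed a short hairpin RNA, either against CNOT7 or scrambled, and were sampled at 17 to 19 days in vitro. The 4 groups were long-tail RNA of knockdown neurons, long-tail RNA of scrambled neurons, total poly(A) RNA of knockdown neurons and total poly(A) RNA of scrambled neurons. Poly(U) agarose captured the RNA. Long-tail RNA was what a 50 °C wash, meant to strip tails under 50 nucleotides, had left on the agarose, and total poly(A) RNA was released at 75 °C without that wash. All groups were cultured and infected alike, the sources used here do not give the number of hairpins per target, and nothing in the labels says whether the 2 libraries of a group were separate cultures, so p-values measure only the spread between these libraries. CNOT7 is a deadenylase of the CCR4-NOT complex, which shortens poly(A) tails, and the comparisons ask which mRNAs changed in amount or in their share among long-tailed RNA once it was reduced.

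Potassium channels let potassium leave a neuron and so set its resting potential, end its action potentials and space its firing. Voltage-gated channels open on depolarisation and are built from 4 pore-forming subunits, with modifier subunits that are silent alone and auxiliary subunits that alter gating. Inward rectifiers hold the membrane near rest or answer to G proteins and ATP, two-pore channels carry leak current, and calcium-activated channels repolarise the cell after calcium entry. The members comprised 30 voltage-gated pore-forming genes (of 38 in the table), 4 voltage-gated auxiliary genes (of 8), 10 inward rectifiers (of 15), 7 two-pore channels (of 14), 6 calcium-activated genes (of 9) and 3 sodium-activated or related genes (of 3). The 2 others, Kcnq1ot1 and Kcnd3os, are antisense RNAs and code for no channel. Where the counting did not use strand, which the sources used here do not say, their reads cannot be told apart from those of the overlapping channel gene.

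All pore-forming members carried the coding sequence of the potassium-channel signature, the stretch that lines the selectivity filter and passes potassium over sodium. It was found by a search of the annotated coding sequences (GENCODE vM21, build GRCm38) in 54 of the 60 coding members, 90% of them, against 1.28% of 13016 other tested genes. The 6 without it were the auxiliary genes Kcnab1, Kcnab2, Kcnab3, Kcne1l, Kcnmb2 and Kcnmb4. All 7 two-pore genes held 2 matches, and no other class had a member with 2. The filters of the most abundant voltage-gated, two-pore and calcium-activated members that hold one, and of the sodium-activated Kcnt1, are shown because this is the feature that makes these proteins 1 family; the 45 bases are read on the coding strand and the 15 capitals are the codons of the signature.
Kcna1 (chr6:126642213-126642257, minus strand): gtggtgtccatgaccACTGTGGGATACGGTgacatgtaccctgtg
Kcnk1, first filter (chr8:125995793-126025034, plus strand, across an intron): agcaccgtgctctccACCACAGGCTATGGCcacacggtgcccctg
Kcnk1, second filter (chr8:126025314-126025358, plus strand): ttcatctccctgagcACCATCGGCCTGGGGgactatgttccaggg
Kcnma1 (chr14:23528398-23528442, minus strand): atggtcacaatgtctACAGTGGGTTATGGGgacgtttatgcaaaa
Kcnt1 (chr2:25894352-25894396, plus strand): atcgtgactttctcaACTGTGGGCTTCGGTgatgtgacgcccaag
Kcnh3, the member with the smallest p after knockdown in total RNA, and Kcnk9, the two-pore member with the most negative long-tail difference, are shown because both are described below. Neither passed the test in the reported fit.
Kcnh3 (chr15:99232914-99232958, plus strand): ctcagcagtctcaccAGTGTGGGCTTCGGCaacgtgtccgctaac
Kcnk9, first filter (chr15:72513022-72546018, minus strand, across an intron): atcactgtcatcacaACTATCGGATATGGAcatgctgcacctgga
Kcnk9, second filter (chr15:72512704-72512748, minus strand): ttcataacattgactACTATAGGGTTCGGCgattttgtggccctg

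The hairpin reduced its target and the cultures held neurons and glia. Cnot7 had 12 and 16 TPM in knockdown total RNA, against 42 and 36 TPM in scrambled total RNA, and 9 and 11 TPM in knockdown long tails, against 28 and 31 TPM in scrambled long tails. These differences of -1.42 and -1.48 in log2(TPM + 1) did not pass the test over all genes (limma adjusted p = 0.153 and 0.173), whereas the authors' deposited tables list Cnot7 at a log2 fold change, turned to knockdown over scrambled, of -1.12 (adjusted p = 3.96e-05) in total RNA and -1.18 (adjusted p = 1.02e-05) in long tails. The summed level of 6 neuron markers ran from 2733 to 4163 TPM. That of 7 astrocyte markers ran from 2445 to 4751 TPM and that of 10 oligodendrocyte-lineage markers from 1067 to 1988 TPM. The microglial markers Aif1, Cx3cr1 and Tmem119 and the endothelial markers Cldn5 and Pecam1 were at 0 in all 8 libraries. The other microglial markers were low, with Csf1r at 0 to 1 TPM and C1qa at 0 to 4 TPM. Markers of vessel-wall (mural) cells were detected, Rgs5 at 1 to 8 TPM and Pdgfrb at 7 to 16 TPM. The 2 knockdown long-tail libraries were the least alike: they correlated across 13681 genes at r = 0.966, against 0.982 to 0.985 in the other groups. The ribosomal RNA gene Rn45s took 18.6% of the TPM in library 1 of that group and 2.90% in library 2. In the other groups it took 6.07% to 17.2%. TPM were rounded to whole numbers by the authors and the read depth is unknown, so for members of a few TPM 1 unit is a large step.

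The members together took 1397 ± 157 TPM in knockdown long tails and 1478 ± 72.8 TPM in scrambled long tails, and 1872.5 ± 14.8 TPM in knockdown total RNA and 1941 ± 12.7 TPM in scrambled total RNA (SD, n = 2 each). Of that, voltage-gated genes held 47.6%, inward rectifiers 28.6%, two-pore channels 14.4% and calcium-activated genes 8.68%. The 4 classes were built differently. Kcnj10 alone made up 69.6% of the inward rectifier sum and Kcnk1 67.1% of the two-pore sum, whereas the most abundant pore-forming voltage-gated gene, Kcna1, made up 13.3% of its class. The median member had 10.6 TPM.

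**Figure D1:**
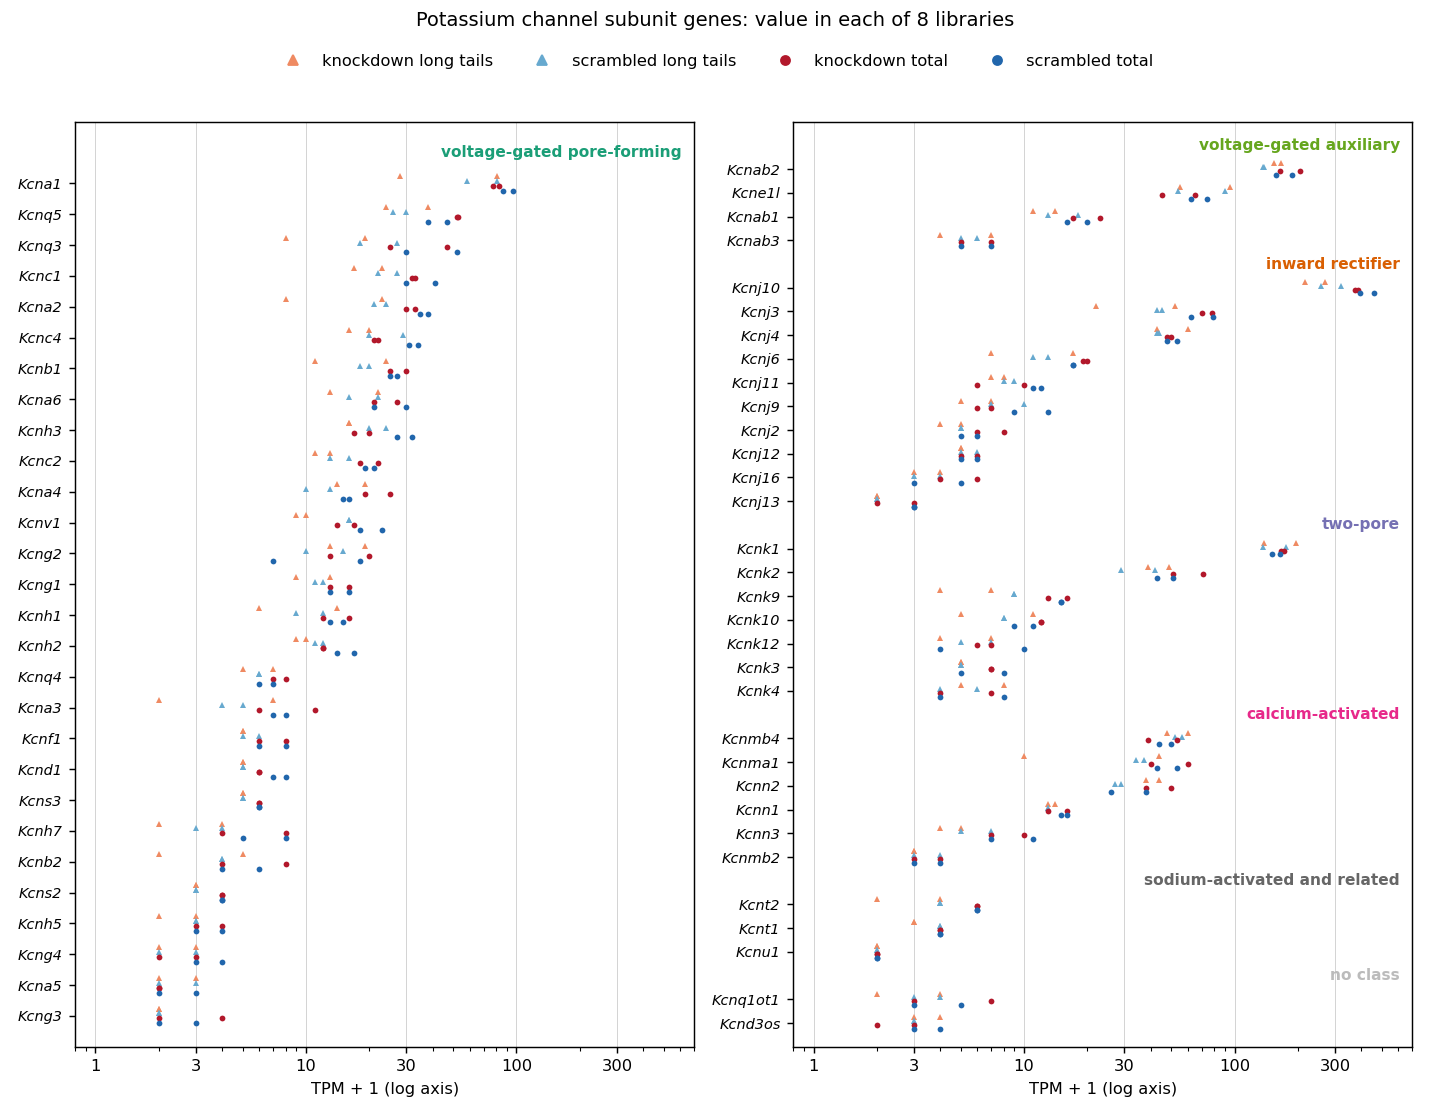
Level of 60 of the 62 members as TPM + 1 on a log axis, 1 symbol per library (triangles long tails, circles total RNA, orange or red knockdown, light or dark blue scrambled), ordered by mean within each class. Kcnj10, Kcnab2 and Kcnk1 stand at the right, and several pore-forming genes, Kcna1, Kcna2 and Kcnq3 among them, have 1 knockdown long-tail triangle to the left of the rest.

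Among voltage-gated pore-forming genes the most abundant was the Shaker channel Kcna1. Kcna1 had 80 and 27 TPM in knockdown long tails, 80 and 57 TPM in scrambled long tails, 82 and 76 TPM in knockdown total RNA and 95 and 85 TPM in scrambled total RNA. It was lower in the 2 knockdown total libraries than in the 2 scrambled total libraries, and knockdown long-tail library 2 was the lowest of the 8. The 8 modifier genes were led by Kcnv1 at a mean of 14.4 TPM, and 27 of the 30 pore-forming genes averaged from 1.38 to 37.5 TPM.

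The auxiliary subunits were few but abundant. Kcnab2, a cytoplasmic beta subunit of Shaker channels, had 166 and 153 TPM in knockdown long tails, 137 and 136 TPM in scrambled long tails, 204 and 164 TPM in knockdown total RNA and 186 and 156 TPM in scrambled total RNA. Kcne1l, a single-pass regulator of voltage-gated channels, had 54 and 94 TPM in knockdown long tails, 53 and 89 TPM in scrambled long tails, 44 and 64 TPM in knockdown total RNA and 61 and 73 TPM in scrambled total RNA. Library 2 was above library 1 for Kcne1l in all 4 groups, so its groups overlapped throughout. Kcnab1 averaged 15.5 TPM and Kcnab3 4.75 TPM.

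Kcnj10, the astrocyte inward rectifier that clears potassium from around neurons, was the most abundant member. It had 269 and 215 TPM in knockdown long tails, 256 and 318 TPM in scrambled long tails, 371 and 383 TPM in knockdown total RNA and 394 and 460 TPM in scrambled total RNA. Its lowest library, at 215 TPM, was above the highest Kcnab2 library, and its long-tail libraries lay below its total libraries under both hairpins. The summed astrocyte markers, in the same order of libraries, were 3547 and 2445 TPM, 3544 and 3112 TPM, 4701 and 3098 TPM and 4751 and 3731 TPM; their part in the Kcnj10 values was not tested, and in bulk RNA fewer cells of a type and less RNA per cell cannot be told apart. Kcnj3, a subunit of the G protein-gated channel, had 51 and 21 TPM in knockdown long tails, 44 and 42 TPM in scrambled long tails, 77 and 69 TPM in knockdown total RNA and 78 and 61 TPM in scrambled total RNA. Kcnj4, a strong rectifier of forebrain neurons, stayed between 42 and 59 TPM. The other 7 inward rectifiers averaged from 1.38 to 14.1 TPM.

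Two-pore channels were dominated by Kcnk1, a weakly conducting leak channel, which had 137 and 194 TPM in knockdown long tails, 136 and 175 TPM in scrambled long tails, 165 and 170 TPM in knockdown total RNA and 150 and 164 TPM in scrambled total RNA. It overlapped Kcnab2 in range and the order of the pair is not settled. Kcnk2, the mechanically gated leak channel, had 38 and 48 TPM in knockdown long tails, 28 and 41 TPM in scrambled long tails, 50 and 70 TPM in knockdown total RNA and 42 and 50 TPM in scrambled total RNA. Kcnk9, the acid-sensitive leak channel, had 6 and 3 TPM in knockdown long tails, 8 and 8 TPM in scrambled long tails, 12 and 15 TPM in knockdown total RNA and 14 and 14 TPM in scrambled total RNA. For Kcnk9 the 4 groups separated by fraction without overlap, and its knockdown long-tail libraries were the lowest.

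The calcium-activated class paired Kcnma1, the large-conductance BK pore, with its neuronal beta subunit Kcnmb4 and the small-conductance SK genes. Kcnmb4 had 47 and 59 TPM in knockdown long tails, 51 and 55 TPM in scrambled long tails, 52 and 38 TPM in knockdown total RNA and 49 and 43 TPM in scrambled total RNA. Kcnma1 had 43 and 9 TPM in knockdown long tails, 36 and 33 TPM in scrambled long tails, 39 and 59 TPM in knockdown total RNA and 42 and 52 TPM in scrambled total RNA, the widest gap on the log2 scale between 2 libraries of a group over all members. The SK channel Kcnn2 had 43 and 37 TPM in knockdown long tails, 28 and 26 TPM in scrambled long tails, 49 and 37 TPM in knockdown total RNA and 37 and 25 TPM in scrambled total RNA. Sodium-activated Kcnt1 and Kcnt2 averaged 2.75 and 3.75 TPM, and Kcnu1, a pH-gated channel known from sperm, was at 1 TPM in every library, exactly on the 1 TPM limit. Kcna5, Kcng3 and Kcnj13, at 1.38 TPM each, also lay just inside it, and Kcnk5 at 0.875 TPM, Kcnrg at 0.75 TPM and Kcnk7 at 0.5 TPM just outside.

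**Figure D2:**
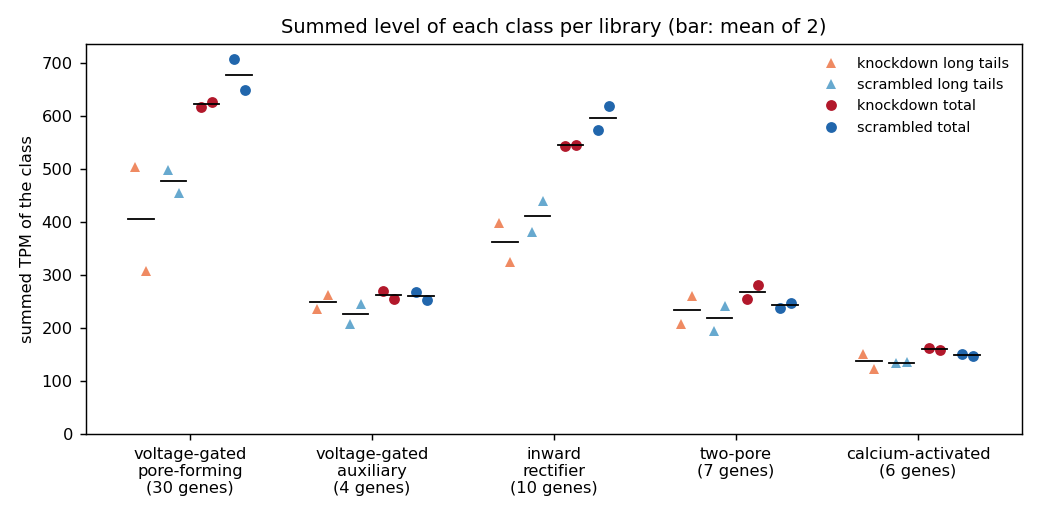
Summed TPM of each class in each library (y axis from 0), with red and orange symbols for knockdown, blue for scrambled, and a bar at the mean of 2 libraries. The sodium-activated or related class is not drawn. In long tails the pore-forming voltage-gated sum was 503 and 307 TPM in the knockdown libraries, against 499 and 455 TPM in the scrambled libraries, while the auxiliary sum ran from 207 to 270 TPM and the calcium-activated sum from 123 to 163 TPM over the 8 libraries.

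After CNOT7 knockdown no potassium channel gene passed the test over all genes in total RNA. The target Cnot7 did not pass it either (limma adjusted p = 0.153), so a lack of calls does not show a lack of change. With limma on log2(TPM + 1), 0 of 62 members passed an adjusted p of 0.05, as did 0% of the 13681 tested genes. Without adjustment, p was under 0.05 for 0 members higher and 5 lower, against 2.05% of all genes higher and 4.3% lower. The 2 knockdown libraries lay wholly above the 2 scrambled ones for 5 members and wholly below for 11, against 8.68% and 20.1% of all genes, and 2 libraries against 2 cannot give an exact permutation p under 0.333. Differences were above 0 for 22 members and below 0 for 29, against 32.6% and 60.2% of all genes. The median difference over the members was 0, against -0.07 over all tested genes. By class the medians were -0.01 for voltage-gated, -0.02 for inward rectifier, 0.09 for two-pore and -0.02 for calcium-activated genes. The voltage-gated, inward rectifier and calcium-activated medians turned above 0 under quantile normalization, rescaling without Rn45s and centring of the libraries, while the two-pore median stayed above 0 under these and was -0.06 without scrambled total library 2. The classes were not tested against each other.

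The members with the smallest p in total RNA were lower: Kcnh3, a voltage-gated channel of forebrain neurons, and Kcnd1, an A-type channel. Kcnh3 had 19 and 16 TPM in knockdown neurons, against 31 and 26 TPM in scrambled neurons, a difference of -0.67 (SE 0.16, adjusted p = 0.506). The groups did not overlap, and they did not overlap in long tails either, where Kcnh3 had 15 and 15 TPM in knockdown neurons, against 23 and 19 TPM in scrambled neurons (-0.45, adjusted p = 0.548). Kcnd1 had 5 and 5 TPM in knockdown neurons, against 6 and 7 TPM in scrambled neurons (-0.32, adjusted p = 0.702), a gap of at most 2 whole TPM. The other 3 with an unadjusted p under 0.05 were Kcnc4, Kcnj9 and Kcnh2, all lower; as a count of 5 or fewer they were named after their values were seen. Kcnc4 had 20 and 21 TPM in knockdown neurons, against 30 and 33 TPM in scrambled neurons (-0.59, adjusted p = 0.739).

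On the higher side in total RNA stood Kcna4, the A-type Shaker channel of axons, and Kcnn2. Kcna4 had 18 and 24 TPM in knockdown neurons, against 15 and 14 TPM in scrambled neurons, a difference of 0.49 (SE 0.23, adjusted p = 0.877). In long tails Kcna4 had 18 and 13 TPM in knockdown neurons, against 12 and 9 TPM in scrambled neurons (0.52, adjusted p = 0.596). Neither pair of groups overlapped. Kcnn2, whose values are given above, differed by 0.47 in total RNA (adjusted p = 0.882), where the groups overlapped, and by 0.55 in long tails (adjusted p = 0.582), where they did not.

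**Figure D3:**
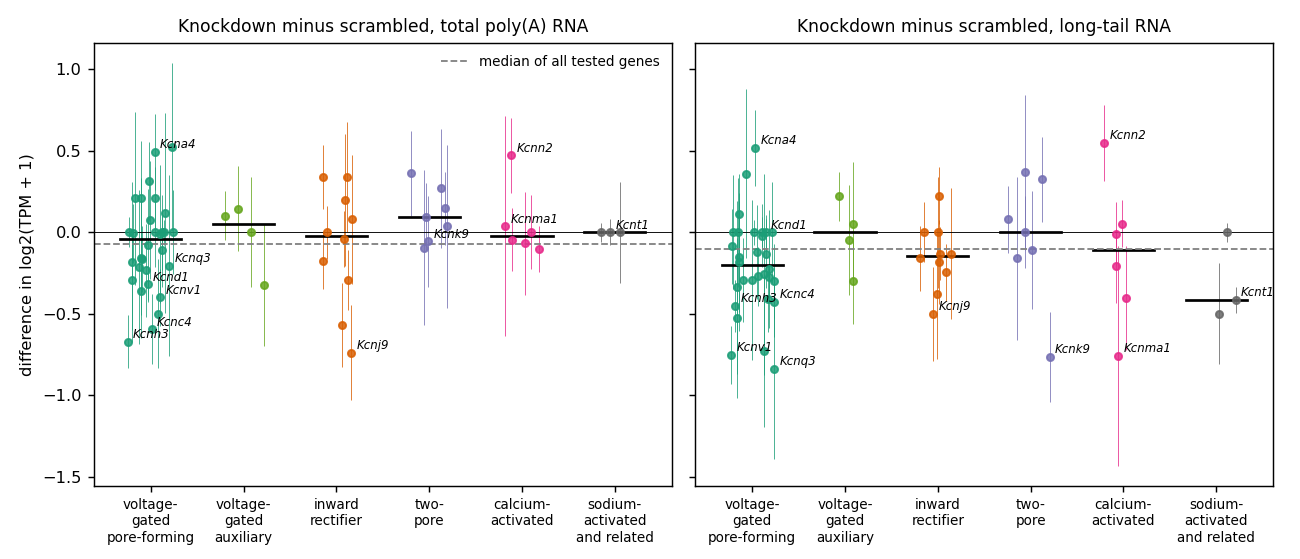
Knockdown minus scrambled difference in log2(TPM + 1) for each member, by class, in total RNA (left) and long tails (right); points are genes, vertical lines 1 SE, black bars class medians and the dashed line the median of all tested genes. Kcna4 and Kcnn2 are above 0.4 and Kcnh3 below -0.4 in both panels. The antisense RNAs are not drawn.

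In long-tail RNA 0 of 62 members passed the test between knockdown and scrambled neurons (limma), again beside 0% of all genes. Unadjusted p was under 0.05 for 0 members higher and 4 lower, against 2.25% and 6.47% of all genes. The libraries were wholly higher in knockdown for 3 members and wholly lower for 6, against 8.91% and 17.1%. Differences were above 0 for 12 members and below 0 for 40, against 32% and 61.2%. The median member differed by -0.14, against -0.10 over all genes; class medians were -0.17 for voltage-gated, -0.15 for inward rectifier, 0 for two-pore and -0.11 for calcium-activated genes. The members' median depended on library and scaling. Without knockdown long-tail library 2 it was 0, and without knockdown long-tail library 1 it was -0.31. It was above 0 under quantile normalization (0.02), with libraries centred on their median (0.01) and with the trend on transcript length removed (0.06), and -0.16 when rescaled without Rn45s. Across members this difference and log2 transcript length correlated at r = -0.460, and across 13507 other genes at -0.340, as a description with no test.

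The 4 lower ones in long tails were Kcnt1, Kcnv1, Kcnh3 and Kcnk9. Kcnv1, a modifier of Kv2 channels, had 9 and 8 TPM in knockdown neurons, against 15 and 15 TPM in scrambled neurons, a difference of -0.75 (SE 0.18, adjusted p = 0.411). In total RNA Kcnv1 had 13 and 16 TPM in knockdown neurons, against 22 and 17 TPM in scrambled neurons (-0.40, adjusted p = 0.84). Kcnk9 differed by -0.77 in long tails (adjusted p = 0.55) and by -0.06 in total RNA (adjusted p = 1). Kcnt1 had 2 TPM in both knockdown libraries, against 3 TPM in both scrambled libraries, so its difference of -0.42 (adjusted p = 0.346) is a step of 1 rounded unit. The interaction, which asks whether the knockdown difference is not the same in long tails as in total RNA, was passed by 0 members and 0% of all genes; Kcnt1 was the 1 member with an unadjusted p under 0.05 (-0.42, adjusted p = 1), so 0 members were higher and 1 lower at that level, against 0.395% and 0.482% of all genes. The next smallest p was for Kcnk9 (-0.71) on the lower side, and for Kcnd1 (0.32) and Kcnd3os (0.71) on the higher side (adjusted p = 1 for all 3).

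The authors' deposited tables, which hold 104 genes for total RNA and 97 for long tails, all with an adjusted p under 0.05, list none of the 62 members. Nor do the authors' deposited tables list any of 25 partner genes: pacemaker channels, BK and ATP-sensitive channel partners, scaffolds and RNA or G protein regulators of these channels. Of the 25 partners 22 were tested, and 0 passed in either fraction (limma). In total RNA 0 had an unadjusted p under 0.05, against 2.05% of all genes higher and 4.3% lower. The smallest p in total RNA belonged to the pacemaker channel Hcn3, with 23 and 17 TPM in knockdown neurons, against 16 and 10 TPM in scrambled neurons (0.60, adjusted p = 0.841), then to Rgs7 (0.27) and the Kv2 partner Amigo1 (-0.28). In long tails 1 of the 22 had an unadjusted p under 0.05, against 2.25% of all genes higher and 6.47% lower. It was the postsynaptic scaffold Dlg4, with 472 and 494 TPM in knockdown neurons, against 341 and 309 TPM in scrambled neurons (0.57, adjusted p = 0.531), followed by Hcn3 (0.54) and Adam22 (-0.59). The oligodendrocyte-lineage markers were below 0 after knockdown for 10 of 10 genes in both fractions, with medians of -0.41 in total RNA and -0.35 in long tails. The astrocyte markers were below 0 for 6 of 7 genes in total RNA (median -0.20) and 5 of 7 in long tails (median -0.46), and the astrocyte channel Kcnj10 differed by -0.18 (adjusted p = 0.987) and -0.25 (adjusted p = 0.671). The neuron markers were below 0 for 2 of 6 genes in both fractions, with medians of 0.09 in total RNA and 0.18 in long tails. Excitatory neuron markers were below 0 for 2 of 5 genes in total RNA (median 0.21) and 0 of 5 in long tails (median 0.15). Inhibitory neuron markers were below 0 for 5 of 6 genes (median -0.13) and 4 of 6 (median -0.14). Of all genes 60.2% were below 0 in total RNA and 61.2% in long tails. The markers' part in any member's difference was not tested.

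Between fractions, most members had a smaller share in long-tail than in total RNA, though no single one passed the test. In knockdown neurons the difference was below 0 for 54 of 62 members and above 0 for 6, against 68.7% and 26.7% of all genes, and the median was -0.44, against -0.22 over all genes. In scrambled neurons it was below 0 for 54 and above 0 for 3, against 74.3% and 20.7%, with a median of -0.36, against -0.22. By limma 0 of 62 members passed under either hairpin, beside 0% of all genes, and 0 of 62 in the average of both hairpins, beside 0.11%. Unadjusted p was under 0.05 and the difference negative for 17 members in knockdown neurons, 10 in scrambled neurons and 24 in the average, against 25.1%, 12.9% and 34.3% of all genes. It was positive for 0 members in each, against 0.921%, 0.263% and 1.35%. The 2 long-tail libraries lay wholly below the 2 total libraries for 27 members in knockdown and 33 in scrambled neurons, against 40% and 39.6% of all genes, and wholly above for 0 and 1, against 4.04% and 4.69%. A share of TPM in 1 library is compared here, so a lower value is a smaller share among long-tailed RNA and gives no tail length. The differences are read against the all-gene median, since scaling libraries to the same distribution (quantile normalization) moved that median to 0.03 in knockdown and -0.02 in scrambled neurons and the members' medians to -0.14 and -0.15.

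By class, the medians in knockdown neurons were -0.48 for voltage-gated, -0.40 for inward rectifier, -0.46 for two-pore and -0.15 for calcium-activated genes. In scrambled neurons they were -0.42, -0.40, -0.31 and -0.21 in the same order. Within the voltage-gated class the pore-forming genes had -0.50 in knockdown and -0.42 in scrambled neurons, and the 4 auxiliary genes -0.18 and -0.17. With the beta subunits Kcnmb2 and Kcnmb4 left out the calcium-activated medians were -0.50 in knockdown and -0.34 in scrambled neurons, and with quantile normalization, beta subunits included, they turned to 0.13 and 0.051; the other 3 classes stayed below 0 in both.

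Among single members the most negative average over both hairpins was that of Kcnq3 (-1.16), with -1.48 in knockdown and -0.84 in scrambled neurons. Kcnk9 had the smallest adjusted p of the two-pore class in the average of both hairpins (-1.09, SE 0.20, adjusted p = 0.0633), with -1.45 in knockdown and -0.74 in scrambled neurons. Kcnj10 differed by -0.65 in knockdown and -0.58 in scrambled neurons, and by -0.61 on average (adjusted p = 0.0633). The modifier Kcns2, with the smallest p of all members here, had 2 TPM in all 4 long-tail libraries and 3 TPM in all 4 total libraries (-0.42, adjusted p = 0.0633), again a step of 1 rounded unit; Kcnd1 stood at 4 TPM in all 4 long-tail libraries.

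A few members lay on the other side or near 0. Kcnmb4 was higher in long tails by 0.24 in knockdown and 0.20 in scrambled neurons (average 0.22, adjusted p = 0.304), and Kcne1l by 0.42 and 0.04 (average 0.23, adjusted p = 0.573). Kcnk1 differed by -0.04 and -0.02, with a 95% interval of -0.39 to 0.33 for the average. The antisense RNA Kcnd3os was at 1 to 3 TPM and its difference of 0.50 in knockdown neurons (adjusted p = 0.279) had overlapping groups. Kcng2, at 18 and 12 TPM in knockdown long tails, 14 and 9 TPM in scrambled long tails, 19 and 12 TPM in knockdown total RNA and 17 and 6 TPM in scrambled total RNA, differed by -0.04 in knockdown and 0.13 in scrambled neurons; without scrambled total library 2 the scrambled difference was -0.56 and without scrambled long-tail library 1 it was -0.17.

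The place of a member on this scale went with the length of its transcript. Across 60 members with a coding transcript, the long-tail difference and log2 transcript length correlated at r = -0.614 in knockdown and -0.494 in scrambled neurons, and across 13507 other genes at -0.676 and -0.645; these are correlations across genes of the same libraries, and genes are not independent replicates. The members' annotated transcripts were longer, with a median of 3834 bases against 3039. The 30 members above 3834 bases had a median of -0.61 in knockdown and -0.42 in scrambled neurons, and the 30 shorter ones -0.24 and -0.24. Kcnmb4 (1367 bases) and Kcne1l (1543 bases) are short, and Kcnk9 (12300 bases), Kcnq3 (11824 bases) and Kcna2 (11582 bases) long. With the length trend taken out of each library the members' medians were 0.01 in knockdown, -0.04 in scrambled and -0.001 in the average, beside 0.02, -0.01 and 0.01 over all genes, and 0 of 62 passed.

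**Figure D4:**
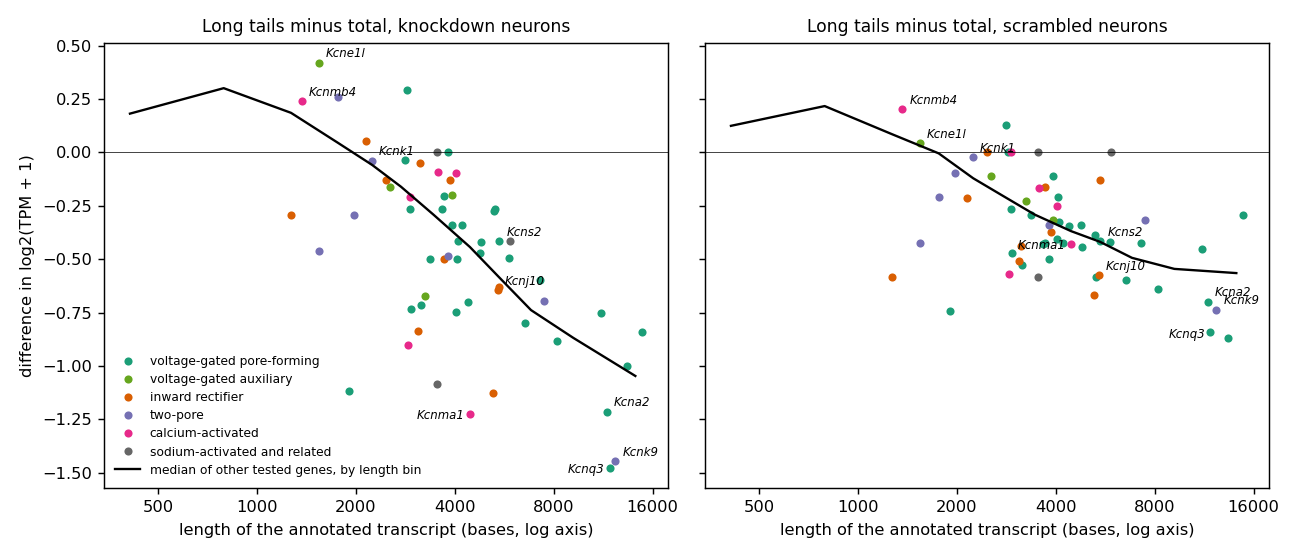
Long-tail minus total difference in log2(TPM + 1) of each member against the length of its annotated transcript (log axis), in knockdown (left) and scrambled neurons (right); colours are classes and the black line joins the medians of other tested genes in bins of length. The members scatter around the line, with Kcne1l and Kcnmb4 at the short, high end and Kcnk9, Kcnq3 and Kcna2 at the long, low end. The antisense RNAs are not drawn.

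The ends of the transcripts were searched for 2 motifs. In the last 300 bases of the transcript strand, the cleavage signal AATAAA stood in 34 of 52 members with a 3′ UTR that long (65.4%) and in 72.2% of 10658 other genes. TTTTAT or TTTTAAT, the letters of cytoplasmic polyadenylation elements, stood in 11 of the 52 (21.2%) and in 37.5% of the others. By class, 5 of 27 pore-forming voltage-gated genes, 3 of 9 inward rectifiers, 3 of 6 calcium-activated genes and 0 of 5 two-pore genes held the second motif. A match is a run of letters and not a site shown to work.

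Knockdown long-tail library 2 lay below library 1 of its group for many pore-forming voltage-gated genes and for 4 of 7 two-pore genes. Of the pore-forming genes, 23 of 30 were lower in library 2 and 1 was higher, with a median of -0.54, and 7 were lower by more than 1 log2 unit. Among these 7, Kcna2 had 22 and 7 TPM, Kcna1 80 and 27 TPM and Kcnq3 18 and 7 TPM. Of 13507 other tested genes 5293 were lower in library 2 and 6403 higher, with a median of 0. The auxiliary genes had a median of 0.12, the inward rectifiers 0, the two-pore genes -0.68 and the calcium-activated genes -0.11. The most abundant two-pore genes, Kcnk1 and Kcnk2, were the 2 of that class higher in library 2. The summed two-pore level was 208 TPM in library 1 and 260 TPM in library 2. Between the 2 libraries of the other 3 groups the pore-forming medians were 0.02 in knockdown total, -0.05 in scrambled total and -0.06 in scrambled long tails. This too went with length: the 30 members above 3834 bases had a median of -0.56 between the knockdown long-tail libraries and the 30 shorter ones 0, beside -0.35 and 0.20 for other genes.

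**Figure D5:**
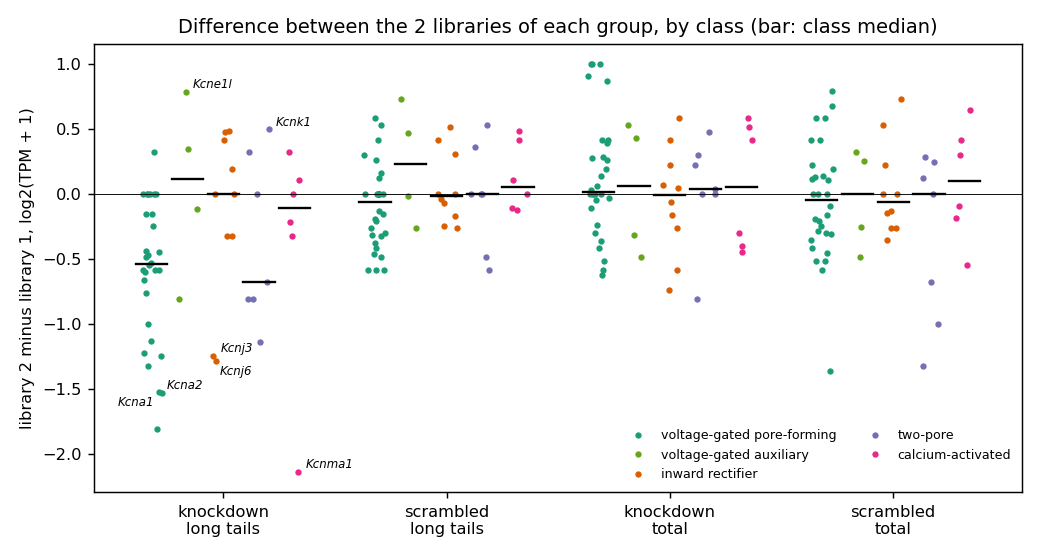
Library 2 minus library 1 in log2(TPM + 1) in each of the 4 groups, coloured by class, with a bar at the class median. Drawn are the voltage-gated, inward rectifier, two-pore and calcium-activated members. In knockdown long tails the pore-forming and two-pore bars are at -0.54 and -0.68 and Kcnma1 is lowest of all, while all other bars lie within 0.25 of 0.

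Calls between fractions depended on which genes and libraries entered. Restricting the test to genes averaging 5 TPM or more left 40 members, and 11 of them were lower in long tails on average over both hairpins at an adjusted p under 0.05, beside 18.9% of 11082 genes. Among them were Kcna2, Kcnc1, Kcnc2, Kcnq3, Kcnq5 and Kcnv1 of the voltage-gated class, Kcnj3 and Kcnj10, Kcnk9 and Kcnn3. Without knockdown long-tail library 1, and so with library 2 alone in that group, 14 members were called lower in knockdown neurons, beside 14.7% of all genes, and 20 in the average, beside 22.1%. Without knockdown long-tail library 2 the counts were 0 and 0, and the members' median was -0.21 in knockdown neurons and -0.30 in the average. Kcnj13, at 1.38 TPM, was the 1 member called lower in scrambled neurons when only the groups compared were fitted (beside 0.577% of all genes) or without knockdown total library 1 or 2 (0.387% and 0.38%), and in the average without knockdown total library 2 (0.205%). Kcnj13 had 1 TPM in both scrambled long-tail libraries and 2 TPM in both scrambled total libraries, a step of 1 rounded unit. At a mean of at least 20 TPM, a limit chosen after seeing the data, 7 of 21 members were called lower in the average, beside 19.4% of 6810 genes.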

How the data were processed

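Poly(A) RNA of 8 libraries was analysed in 4 groups of 2. The submitters' processing notes list, among other tools, CASAVA, TopHat2 and RSEM, with the mm10 genome; no version or role is stated. The gene values are a score: TPM that the authors rounded to whole numbers, with column sums from 999689 to 999809. Per the file headers, the authors' 2 deposited tables hold for each listed gene a log2 ratio with its raw and adjusted p-value, and a mean normalized signal that was not used. That log2 ratio ran against the TPM difference in sign for all 104 and 97 genes, so its sign was turned. Read depth is unknown, so no counting intervals were made.

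Values were taken as log2(TPM + 1) for 13681 genes averaging 1 TPM or more, and every difference is on that scale, which understates low genes. A limma model (3.58.1, R 4.3.3; 4 group means, mean-variance trend) was fitted to all of them and tested two-sided. Adjusted p-values are Benjamini-Hochberg over all genes, with calls under 0.05. The fit was tested on simulated data. False calls were checked there only for unrounded values and for genes of about 5 TPM or more. Rounding can by itself make calls among genes of a few TPM, so the check does not cover those. Transcript lengths, coding sequences and coordinates came from GENCODE vM21 (GRCm38), 1 principal transcript per gene; all 62 members matched. Members, classes, partner and marker lists were chosen with earlier results of these data known. Members were named if among the 3 most abundant of a class, or among the 2 per direction with the smallest p in a contrast. Those near the 1 TPM limit were named too. Some others, Kcnq3 and Kcna2 among them, were named after their values were seen. The values of 2 members and 1 sequence are not reported here; counts, sums and medians include all members. Alternatives covered pseudocount, filters, scaling, fit and each library left out.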

Additional observations from a re-analysis of the deposited data

How the results depend on the processing

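No member passed the test after knockdown in total RNA or in the interaction under any setting run. After knockdown in long tails 0 passed except under 1 setting given below. Between fractions, 11 of 40 members were called lower on average at a mean of at least 5 TPM, and 7 of 21 at a mean of at least 20 TPM, a limit chosen after seeing the data. Fitting only the groups compared called 1 in scrambled neurons, Kcnj13, on a step of 1 rounded unit. Leaving out 1 library gave 0 to 14 members called in knockdown neurons, 0 to 1 in scrambled neurons and 0 to 20 on average, the high counts coming without knockdown long-tail library 1. The replicate number as a block called 0 members in any comparison. Same-numbered libraries deviated together between most groups: over 6810 genes 5 of 6 correlations ran from 0.245 to 0.759, and that of the 2 knockdown groups was -0.116. Because of that pair, and because the labels do not say what a number marks, the numbers were not taken as pairs. The reported fit therefore keeps any deviation shared by same-numbered libraries in its spread, which can hide differences. Of 2 further fits, the first was run at a mean of at least 20 TPM with the block: 3 members were called lower after knockdown in long tails (Kcna2, Kcnma1, Kcnq3), 10 between fractions in knockdown neurons, 1 in scrambled neurons (Kcnq3) and 12 on average, beside 3.13%, 20.2%, 1.37% and 30.8% of 6810 genes. The second crossed the numbers within knockdown long tails, at a mean of at least 1 TPM, and compared only the fractions in knockdown neurons. It called 0 members, as did the uncrossed block at that limit, so it does not bear on the calls at 20 TPM. These 2 further fits were chosen after seeing the data. At a mean of at least 20 TPM, 13 genes were called after knockdown in long tails without the block and 297 with it. Over all genes the calls went from 0 in the reported fit up to 118 after knockdown in total RNA, 297 after knockdown in long tails, 2125 between fractions in knockdown neurons and 99 in scrambled neurons; on average they were 15 in the reported fit and ran from 0 without the mean-variance trend to 3263 without knockdown long-tail library 1.

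Class medians moved with scaling and length; the cause was not tested. The order of classes is voltage-gated, inward rectifier, two-pore and calcium-activated. With a pseudocount of 0.5, the medians of inward rectifier genes were -0.47 between fractions in knockdown and -0.40 on average. With a pseudocount of 0.1, the medians of inward rectifier genes were -0.18 after knockdown in long tails, -0.55 between fractions in knockdown, -0.45 in scrambled and -0.44 on average. Without a filter on low values, the medians of two-pore genes were -0.29 between fractions in knockdown and -0.19 on average. At a mean of at least 5 TPM, the medians of inward rectifier and calcium-activated genes were -0.21 and -0.0080 after knockdown in long tails and 0.084 and 0.037 for the interaction. Those of inward rectifier genes were -0.11 after knockdown in total RNA, -0.47 between fractions in scrambled and -0.43 on average. With quantile normalization, the fraction medians of the 4 classes were -0.14, -0.18, -0.13 and 0.13 in knockdown, -0.18, -0.14, -0.079 and 0.051 in scrambled and -0.16, -0.10, -0.12 and 0.11 on average. Those of inward rectifier and calcium-activated genes were 0.044 and 0.014 after knockdown in long tails and -0.068 and -0.014 for the interaction. That of inward rectifier genes was 0.042 after knockdown in total RNA. With TPM rescaled without Rn45s, the medians of inward rectifier and calcium-activated genes were -0.33 and -0.13 between fractions in scrambled and -0.17 and -0.15 for the interaction. That of inward rectifier genes was 0.021 after knockdown in total RNA. With libraries centred on their median, the fraction medians of the 4 classes were -0.15, -0.066, -0.13 and 0.18 in knockdown, -0.18, -0.16, -0.072 and 0.032 in scrambled and -0.13, -0.069, -0.13 and 0.13 on average. Those of inward rectifier and calcium-activated genes were 0.043 and 0.042 after knockdown in total RNA, 0.0057 and 0.045 after knockdown in long tails and -0.013 and 0.0030 for the interaction. With the beta subunits left out, the medians of calcium-activated genes were -0.18 after knockdown in long tails, -0.50 between fractions in knockdown, -0.34 in scrambled and -0.46 on average. With the length trend removed, the fraction medians of the 4 classes were 0.022, -0.067, -0.14 and 0.067 in knockdown, -0.026, -0.14, -0.045 and 0.082 in scrambled and -0.0070, -0.012, -0.092 and 0.13 on average. Those of inward rectifier and calcium-activated genes were 0.042 and 0.042 after knockdown in total RNA. Those of voltage-gated and inward rectifier genes were 0.071 and -0.035 after knockdown in long tails and 0.018 and -0.027 for the interaction.

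Removing the length trend, also chosen after seeing the data, turned Kcns2 to 0.16 and Kcnt1 to 0.21 between fractions in knockdown neurons, and Kcns2 to 0.075 on average. Kcng2 in scrambled neurons ran from -0.56 to 0.81 with 1 library left out. With 1 library left out, class medians ranged as follows. Medians after knockdown in total RNA ran from -0.16 to -0.0083 for voltage-gated genes, -0.10 to 0.023 for inward rectifier genes, -0.057 to 0.24 for two-pore genes and -0.085 to 0.20 for calcium-activated genes. Medians after knockdown in long tails ran from -0.35 to 0.073 for voltage-gated genes, -0.20 to -0.051 for inward rectifier genes, 0 to 0.16 for two-pore genes and -0.24 to 0.023 for calcium-activated genes. Medians between fractions in knockdown neurons ran from -0.61 to -0.21 for voltage-gated genes, -0.46 to -0.29 for inward rectifier genes, -0.49 to -0.22 for two-pore genes and -0.27 to -0.15 for calcium-activated genes. Medians between fractions in scrambled neurons ran from -0.50 to -0.32 for inward rectifier genes and -0.68 to -0.088 for two-pore genes. Medians between fractions on average ran from -0.41 to -0.33 for inward rectifier genes, -0.43 to -0.22 for two-pore genes and -0.24 to -0.15 for calcium-activated genes. Medians for the interaction ran from -0.40 to 0.15 for voltage-gated genes, -0.13 to 0.058 for inward rectifier genes, -0.28 to -0.079 for two-pore genes and -0.22 to 0.012 for calcium-activated genes. Groups of 2, whole-number TPM and unknown depth limit every value of a few TPM.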
